A study of Homo sapiens with 12 samples.

Results

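Baseline gene expression was compared between Kelly and IMR-32, 2 human neuroblastoma cell lines with amplified MYCN. The members were chosen by their titles: the 2 Kelly and the 2 IMR-32 arrays given DMSO, the vehicle of the inhibitor THZ531, 4 of 12 arrays in the series. The other 8 arrays, 2 for each line at 100 nM and 2 at 400 nM of THZ531, which blocks the transcription kinases CDK12 and CDK13 by binding them covalently, were used to estimate the spread and to measure the line difference again. All cells, controls included, were cultured in RPMI-1640 medium with serum, exposed for 6 h, and lysed for total RNA, which received ERCC spike-in transcripts and was hybridised to PrimeView arrays. Each group is 1 established line and so the cells of 1 tumour, and whether the biological duplicates were separate cultures is not stated, so p-values measured the spread between arrays and not between tumours.

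Neuroblastoma arises from sympathoadrenal cells of the neural crest, which form sympathetic neurons and the chromaffin cells of the adrenal medulla. Such cells make noradrenaline from tyrosine in a chain of enzyme steps and store it in dense core vesicles with chromogranins, under transcription factors that include HAND2, GATA3, ISL1 and PHOX2A. A mesenchymal state, marked by vimentin and SNAI2, is also known in neuroblastoma cells. HOX genes mark the position along the body axis at which crest cells formed.

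Both lines carried adrenergic markers, and mesenchymal markers were measured in both too. The 9 adrenergic markers measured were at levels from 7.14 to 14.1 on the log2 intensity scale over the 4 DMSO arrays. The lowest 10% of genes lay under 4.68 to 4.85 on single arrays. The lowest adrenergic marker was DBH in IMR-32, at 7.14 and 7.35, under the median genes of those arrays at 7.21 and 7.53. The 8 mesenchymal markers ranged from 5.15 to 12.5, highest in VIM. Their log2 summed intensity was 12.4 and 12.4 in Kelly and 13.2 and 13.5 in IMR-32. The 3 measured blood cell markers lay between 3.74 and 5.82, with a log2 summed intensity of 6.58 and 6.82 in Kelly and 6.75 and 6.46 in IMR-32. The 4 fibroblast markers lay between 3.26 and 6.83, with a log2 summed intensity of 7.48 and 7.50 in Kelly and 7.64 and 7.64 in IMR-32. Other panels ranged from 3.76 to 7.16 (Schwann cells), 5.41 to 7.36 (endothelium), 3.79 to 7.63 (epithelium) and 4.24 to 6.70 (adrenal cortex), so their highest members, SOX10, VWF and KRT19, lay above the lowest adrenergic marker in the first 3. Longer lists reached 7.56 for 8 blood cell markers, none called by limma (0 and 0 at an unadjusted p under 0.05), and 9.35 for 10 fibroblast markers, of which COL3A1 was called higher in Kelly (1.35 ± 0.24) and PDGFRA in IMR-32, both calls lost without any 1 of the 4 DMSO arrays (adjusted p up to 0.119 and 0.247). The part of other cell types in the differences was not tested. The values used carry no detection calls, so a level in or near that lowest range may be background, and a fold change against it depends on that. Of the genes named as called, 20 had both arrays of the lower line within the lowest 10%, CPNE8, EDNRB, ENPP2, IFI44, ISL2, KIT, MAGEA1, MAGEA12, MGP, MKRN3, NDN, NEXMIF, NHLH2, PAGE1, PLAGL1, RERG, SIMC1, SMARCA2, ST6GAL2 and TRIM29. In bulk RNA, fewer cells of a type and less RNA per cell cannot be told apart.

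The 2 DMSO arrays of a line correlated at 0.988 in Kelly and 0.988 in IMR-32. Their median intensities over all rows were 101.2 and 103.3 in Kelly and 107.6 and 131.8 in IMR-32, so the second IMR-32 array was the brightest. The treated replicates were less alike, at 0.966 for Kelly at 100 nM, 0.957 for Kelly at 400 nM and 0.924 for IMR-32 at 100 nM, and every array of these 3 groups correlated best with an array of another group. The second IMR-32 100 nM array was closest to the first IMR-32 DMSO array (0.993). Which replicate of a pair is unusual cannot be told from its 2 arrays alone. For IMR-32 at 100 nM, the second array correlated at 0.911 and 0.919 with the 400 nM arrays of that line, and the first at 0.977 and 0.971. The median intensity was 111.7 on the second and 68.2 on the first, against 59.9 and 55.9 at 400 nM. An exchange of labels among the arrays of these 3 groups was not tested, although they enter the spread behind every SE and p-value. All 12 arrays entered the estimate of the spread, and counts are given also without replicate 2 of these 3 treated groups, a choice made after earlier results of these arrays were seen.

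Of 18244 genes tested with limma, 913 (5.00%) differed between the lines at a false discovery rate of 0.05. Expression was higher in Kelly for 362 genes (1.98%) and higher in IMR-32 for 551 genes (3.02%). The median size of these differences was 1.71 on the log2 scale for the genes higher in Kelly and 1.97 for those higher in IMR-32, and 26 and 42 genes exceeded 4. The 2 arrays of one line lay beyond both of the other for every called gene, and for 20.9% (towards Kelly) and 37.8% (towards IMR-32) of all genes. Over all genes the median of Kelly minus IMR-32 was -0.11 as deposited and 0.11 after each array was centred on its median, which called 818 and 866 genes. Without the 3 treated arrays, 4782 genes (26.2%) passed, 1317 (7.22%) of them higher in Kelly and 3465 in IMR-32, and all 362 and all 551 genes were among them. These shares of all genes are the background for the counts in each gene group, and calls towards IMR-32 were the more frequent in both fits. At an unadjusted p under 0.05 by limma, the counts over all 18244 genes were 1023 towards Kelly and 1811 towards IMR-32. The gene lists were chosen with earlier results of these data known, so the counts describe the lists and do not test them. When single DMSO arrays were left out, 153 to 203 genes were higher in Kelly and 181 to 251 in IMR-32. The lowest Kelly count was without the second Kelly array and the lowest IMR-32 count without the second IMR-32 array, and 174 and 182 genes were called without the first Kelly array and 160 and 251 without the first IMR-32 array.

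**Figure D1:**
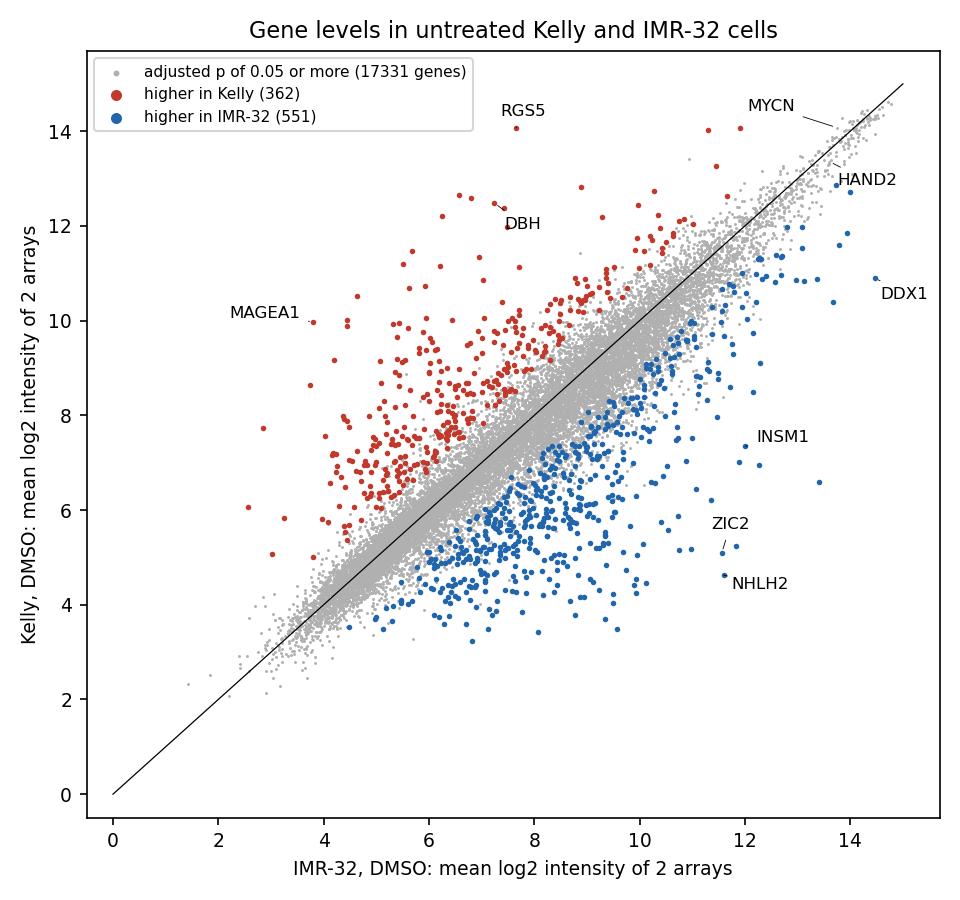
Mean log2 intensity of the 2 Kelly DMSO arrays (vertical axis) against that of the 2 IMR-32 DMSO arrays (horizontal axis), 1 point for each of 18244 genes. The 362 genes higher in Kelly (red) lie above the line of equal levels and the 551 genes higher in IMR-32 (blue) below it.

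The largest excess in Kelly was in RGS5, a regulator that shuts off G protein signals. RGS5 was at 14.18 and 13.96 in Kelly and at 7.37 and 7.94 in IMR-32, a difference of 6.42 ± 0.29 (SE, n = 2 arrays for each line) or 85.5-fold (adjusted p = 8.83e-06). EPAS1, the oxygen-regulated factor HIF-2 alpha, was at 12.62 and 12.68 in Kelly and at 6.32 and 6.83 in IMR-32 (6.07 ± 0.31, 67.3-fold, adjusted p = 1.37e-05). The arrays of the lines were far apart for both genes, and the treated arrays of the lines did not overlap either. MSN, which encodes moesin, a linker of actin to the membrane, differed by 5.69 ± 0.26, GTSF1, a germ cell protein of the piRNA pathway, by 5.78 ± 0.23, and TRIM29, a tripartite motif protein, by 5.88 ± 0.25. RERG, a small GTPase of the RAS family, differed by 5.56 ± 0.74. CPNE8, a calcium-dependent membrane binding protein, TUBA1C, an alpha tubulin, and S100A13, a calcium binding protein, were higher by 4.98, 4.96 and 4.94. The rest of the 15 leading genes were the antigens MAGEA1, MAGEA10 and PRAME, the neuropeptide CARTPT and the catecholamine genes CYB561 and DBH, given with their groups.

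The largest difference of all genes tested was towards IMR-32, in NHLH2, a basic helix-loop-helix factor of developing neurons. NHLH2 was at 4.62 and 4.63 in Kelly and at 11.53 and 11.66 in IMR-32 (-6.97 ± 0.18, 125-fold, adjusted p = 6.19e-07), and the Kelly arrays were within the lowest 10% of genes. ZIC2 and ZIC5, zinc finger factors of early neural development, were higher in IMR-32 too, with ZIC2 at 5.59 and 4.60 in Kelly and at 11.40 and 11.72 in IMR-32 (-6.46 ± 0.37) and a difference of -5.40 ± 0.66 for ZIC5. SMARCA2, an ATPase of the SWI/SNF chromatin remodeler, was at 4.33 and 4.57 against 9.89 and 10.34 (-5.66 ± 0.38), with the Kelly arrays within the lowest 10% of genes, and its 8 probe sets shared 1 direction. ENPP2, the enzyme autotaxin that makes lysophosphatidic acid, differed by -5.68 ± 0.26, PKIB, an inhibitor of the cyclic AMP-dependent kinase, by -5.80 ± 0.39, and CD99, a surface glycoprotein, by -5.58 ± 0.26. NEXMIF, a neurite extension factor, MGP, a matrix protein that restrains calcification, ST6GAL2, a sialyltransferase, and CDCA7L, a MYC-interacting protein, differed by -5.65, -5.47, -5.29 and -5.01. FAM162B (-6.58 ± 0.32) and SIMC1 (-5.46 ± 0.87) completed the 15 leading genes with NNAT and SSTR2, given with their groups. The call of SIMC1 was lost without any 1 of the 4 DMSO arrays (adjusted p up to 0.0712).

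Genes of catecholamine synthesis and of the secretory vesicle lay mostly to the Kelly side. Of 21 measured genes, 9 were higher in Kelly and 2 in IMR-32, and the median difference was 0.82 against -0.11 over all genes. The counts were 11 and 6 without the 3 treated arrays and 11 and 2 after median centring. The proximal promoters of 3 genes of this group and of NHLH2, the gene with the largest difference, are printed because these 4 genes separate the lines. The sequences are from RefSeq (GRCh38.p14), from 250 bases before to 50 after a listed start: DBH at chr9:133636113-133636412 (+), SLC18A2 at chr10:117240864-117241163 (+), CHGA at chr14:92922900-92923199 (+) and NHLH2, the first of 2 listed starts, at chr1:115841077-115841376 (-). Capitals mark matches, on either strand, to the cyclic AMP response element TGACGTCA, the AP-2 core GCCNNNGGC, the GATA core AGATAA and the E-box CAGATG.
DBH: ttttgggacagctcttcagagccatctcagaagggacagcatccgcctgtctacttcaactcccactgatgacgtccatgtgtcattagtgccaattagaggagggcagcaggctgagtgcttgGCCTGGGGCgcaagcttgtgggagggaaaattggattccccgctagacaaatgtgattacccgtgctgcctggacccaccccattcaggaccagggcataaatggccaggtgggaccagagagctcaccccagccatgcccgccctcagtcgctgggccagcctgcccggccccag
SLC18A2: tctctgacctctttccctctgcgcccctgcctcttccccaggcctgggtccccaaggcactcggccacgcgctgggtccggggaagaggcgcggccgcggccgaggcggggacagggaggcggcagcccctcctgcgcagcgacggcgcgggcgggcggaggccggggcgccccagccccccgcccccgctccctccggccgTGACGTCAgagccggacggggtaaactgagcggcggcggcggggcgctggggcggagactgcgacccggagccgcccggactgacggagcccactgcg
CHGA: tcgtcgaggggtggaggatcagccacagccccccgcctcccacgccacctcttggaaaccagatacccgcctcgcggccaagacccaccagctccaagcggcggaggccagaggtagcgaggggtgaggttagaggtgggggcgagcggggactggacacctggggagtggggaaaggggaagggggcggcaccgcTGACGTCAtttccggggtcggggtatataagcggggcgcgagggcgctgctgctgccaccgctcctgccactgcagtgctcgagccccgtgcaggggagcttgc
NHLH2: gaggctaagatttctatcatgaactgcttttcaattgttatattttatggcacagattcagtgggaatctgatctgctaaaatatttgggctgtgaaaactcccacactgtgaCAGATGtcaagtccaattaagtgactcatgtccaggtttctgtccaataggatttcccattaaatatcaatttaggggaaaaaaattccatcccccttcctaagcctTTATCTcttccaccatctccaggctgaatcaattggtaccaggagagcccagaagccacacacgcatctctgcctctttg
The response element stood 48 bases before the start in SLC18A2 and 54 bases before it in CHGA, and 1.85% of 35116 windows of this length hold it. The AP-2 core of DBH stood 126 bases before the start, and 23.2% of windows hold that core. NHLH2 had an E-box, held by 14.7% of windows, and on the opposite strand a GATA core, held by 10.3%. The matches did not overlap, and they describe letters, not binding. Of all 18244 genes 14494 have a window, and the response element was found in 2.63% of these, in 2.84% of the 282 genes higher in Kelly with a window and in 3.83% of the 418 higher in IMR-32. In the same order the shares were 28.7%, 36.2% and 37.8% for the AP-2 core, 7.60%, 6.38% and 5.74% for the GATA core, and 11.5%, 9.93% and 10.5% for the E-box.

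In the order of the pathway, TH, tyrosine hydroxylase, the rate-limiting first enzyme, was at 10.84 and 10.75 against 9.33 and 9.48 in Kelly and IMR-32 (1.39 ± 0.20, adjusted p = 0.00376). DDC, the decarboxylase that makes dopamine, was at 12.46 and 12.43 against 9.88 and 10.05 (2.48 ± 0.28, adjusted p = 0.00105), and 1 of its 3 probe sets had the opposite direction. DBH, dopamine beta-hydroxylase, which turns dopamine into noradrenaline, was at 12.39 and 12.58 against 7.14 and 7.35 (5.24 ± 0.26, 37.9-fold, adjusted p = 1.30e-05). The step from dopamine to noradrenaline thus showed a wider gap than the 2 steps before it, and the groups did not overlap at any of the 3. CYB561, the vesicle cytochrome that carries electrons for this last step, was at 12.53 and 12.65 against 6.82 and 6.78 (5.79 ± 0.26, 55.3-fold, adjusted p = 8.83e-06) and its 9 probe sets shared 1 direction. Both vesicular monoamine transporters were higher in Kelly, SLC18A2 at 10.33 and 9.77 against 5.64 and 6.26 (4.10 ± 0.62) and SLC18A1 at 8.42 and 8.49 against 5.59 and 6.34 (2.50 ± 0.32). SLC6A2, the noradrenaline transporter of the cell surface, was at 10.22 and 10.41 against 8.45 and 8.89 (adjusted p = 0.0802).

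The granins differed among themselves. CHGA, chromogranin A, was at 14.02 and 14.11 against 11.84 and 11.97 (2.16 ± 0.23, adjusted p = 0.000887), while CHGB differed by 0.47 ± 0.40 (adjusted p = 0.701) and SCG2 by -2.37 ± 0.76 (adjusted p = 0.141). SCG5, the chaperone of prohormone convertase 2, was higher in Kelly by 4.24 ± 0.34, and PCSK1N, which encodes an inhibitor of prohormone convertase 1, was higher in IMR-32 (-1.89 ± 0.21). MAOA, a monoamine oxidase (2.91 ± 0.61), and VGF, a neurosecretory protein (-1.24 ± 0.25), also passed the test and were named after their values were seen. MAOA and VGF lost their calls without any 1 of the 4 DMSO arrays (adjusted p up to 0.189 and 0.185), and SLC18A2 without the first Kelly or the first IMR-32 array (up to 0.0639).

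**Figure D2:**
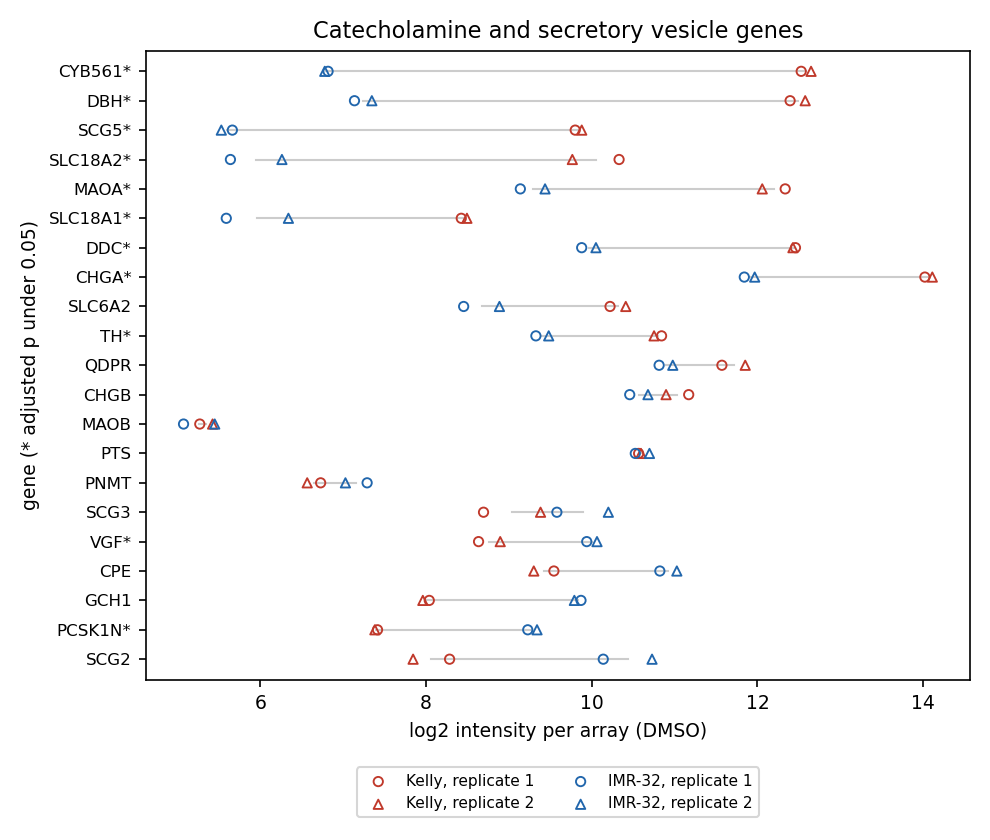
Log2 intensity on each DMSO array for the measured catecholamine and secretory vesicle genes, ordered by the line difference (circles replicate 1, triangles replicate 2, red Kelly, blue IMR-32). CYB561, DBH, SCG5 and SLC18A2 have the widest gaps, all towards Kelly.

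Most of the factors that define sympathetic identity did not pass the test on all 12 arrays. HAND2 was at 13.34 and 13.38 in Kelly and at 13.43 and 13.78 in IMR-32 (-0.24 ± 0.42, adjusted p = 0.87). GATA3 differed by 0.29 ± 0.31, ISL1 by -0.17 ± 0.45, TBX2 by -0.22 ± 0.33 and PHOX2A by -0.26 ± 0.52, with adjusted p from 0.777 to 0.927. HAND1 was at 11.98 and 11.95 against 10.46 and 10.91 (adjusted p = 0.176, and 0.01 after median centring). Of 23 measured factors, 4 were higher in Kelly and 2 in IMR-32, with a median of -0.26, and the counts were 6 and 9 without the 3 treated arrays. TFAP2B, the AP-2 beta factor of sympathetic neurons and chromaffin cells, was at 12.00 and 11.97 in Kelly and at 7.05 and 7.91 in IMR-32 (4.50 ± 0.67, 22.7-fold, adjusted p = 0.00483), and its relative TFAP2A was at 5.50 and 5.09 against 5.37 and 5.53 (-0.15 ± 0.26). GATA2 was higher in Kelly by 1.81 ± 0.37 and LMO1, a LIM-domain cofactor known as a neuroblastoma susceptibility gene, by 1.77 ± 0.35. SIX3, a homeobox factor of forebrain and eye development, was higher in IMR-32 (-2.52 ± 0.46).

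The 2 insulinoma-associated zinc finger genes differed in opposite directions. INSM1, a factor of neuroendocrine differentiation, was at 7.37 and 7.32 in Kelly and at 12.00 and 12.02 in IMR-32 (-4.66 ± 0.26, adjusted p = 2.48e-05). INSM2 was at 12.74 and 12.91 in Kelly and at 8.79 and 8.97 in IMR-32 (3.95 ± 0.26, adjusted p = 6.21e-05). The arrays of the lines did not overlap for either gene, with DMSO or with THZ531. Among other relatives, ISL2 was higher in IMR-32 (-2.57 ± 0.38). Without any 1 of the 4 DMSO arrays the calls of GATA2, LMO1 and SIX3 were lost (adjusted p up to 0.163, 0.142 and 0.119). TFAP2B kept its call only without the second IMR-32 array (up to 0.0557), and ISL2 lost it without the first Kelly or the second IMR-32 array (up to 0.0584).

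**Figure D3:**
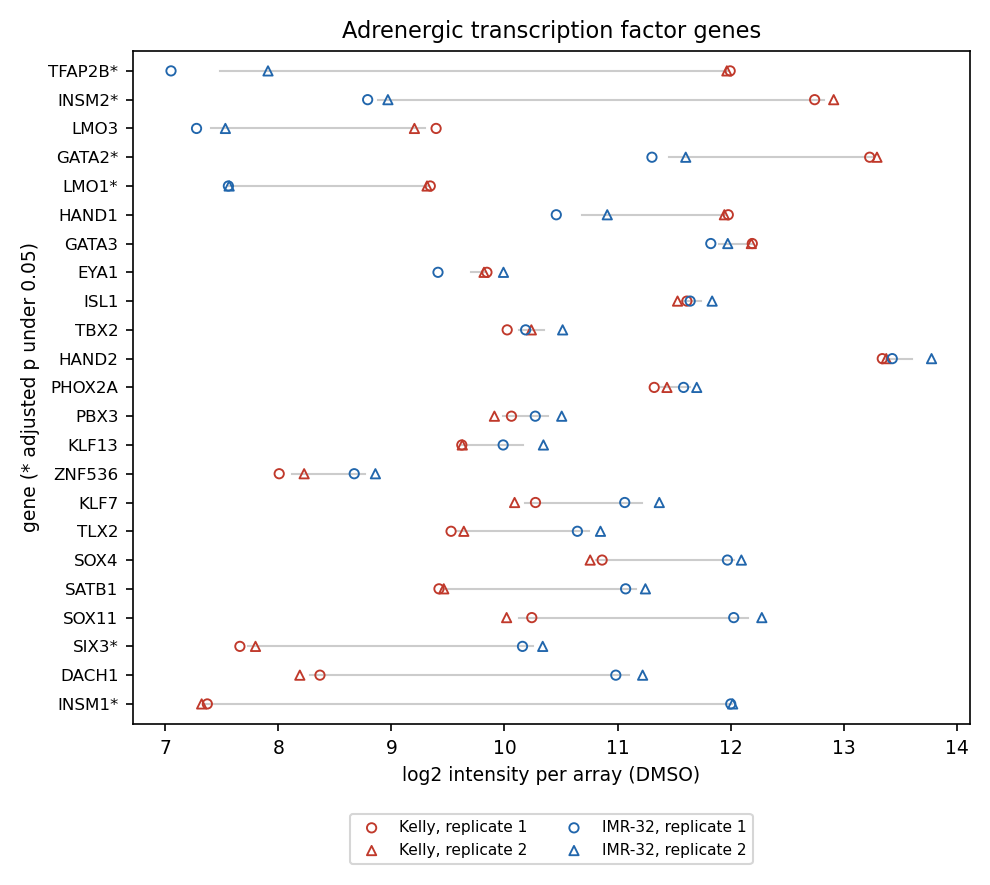
Log2 intensity on each DMSO array for the measured adrenergic transcription factor genes, ordered by the line difference (circles replicate 1, triangles replicate 2, red Kelly, blue IMR-32). TFAP2B and INSM2 stand to the Kelly side and INSM1 to the IMR-32 side, and the points of HAND2 and ISL1 lie close together.

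HOX genes and partners that passed the test were higher in Kelly, but 1 was called higher in IMR-32 after median centring. Of 36 measured HOX genes and their TALE partners, 6 were higher in Kelly and 0 in IMR-32 by limma, with 7 and 1 at an unadjusted p under 0.05, and the median was 0.09. The counts were 6 and 1 after median centring and 10 and 2 without the 3 treated arrays. In the HOXC cluster, which patterns the trunk, HOXC8 was at 9.69 and 9.89 in Kelly and at 7.12 and 7.34 in IMR-32 (2.56 ± 0.27, adjusted p = 0.000729) and HOXC9 at 8.47 and 8.76 against 6.54 and 6.46 (2.12 ± 0.20, adjusted p = 0.000447). HOXC6 differed by 2.13 ± 0.26 and HOXC4 by 1.54 ± 0.26. HOXD13, the most posterior gene of its cluster, was at 8.77 and 8.96 against 5.08 and 5.78 (3.43 ± 0.34, adjusted p = 0.00049), and HOXD11 differed by 2.11 ± 0.21. HOXD9, the paralogue of HOXC9, differed by 0.09 ± 0.31 (adjusted p = 0.943). The partner MEIS1 was at 8.48 and 8.29 against 11.41 and 11.77 (-3.21 ± 0.86), with an adjusted p of 0.0768 on 12 arrays and of 1.99e-09 without the 3 treated arrays, and MEIS2 differed by 0.78 ± 0.84. HOXC4 kept its call only without the first Kelly array (adjusted p up to 0.111).

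**Figure D4:**
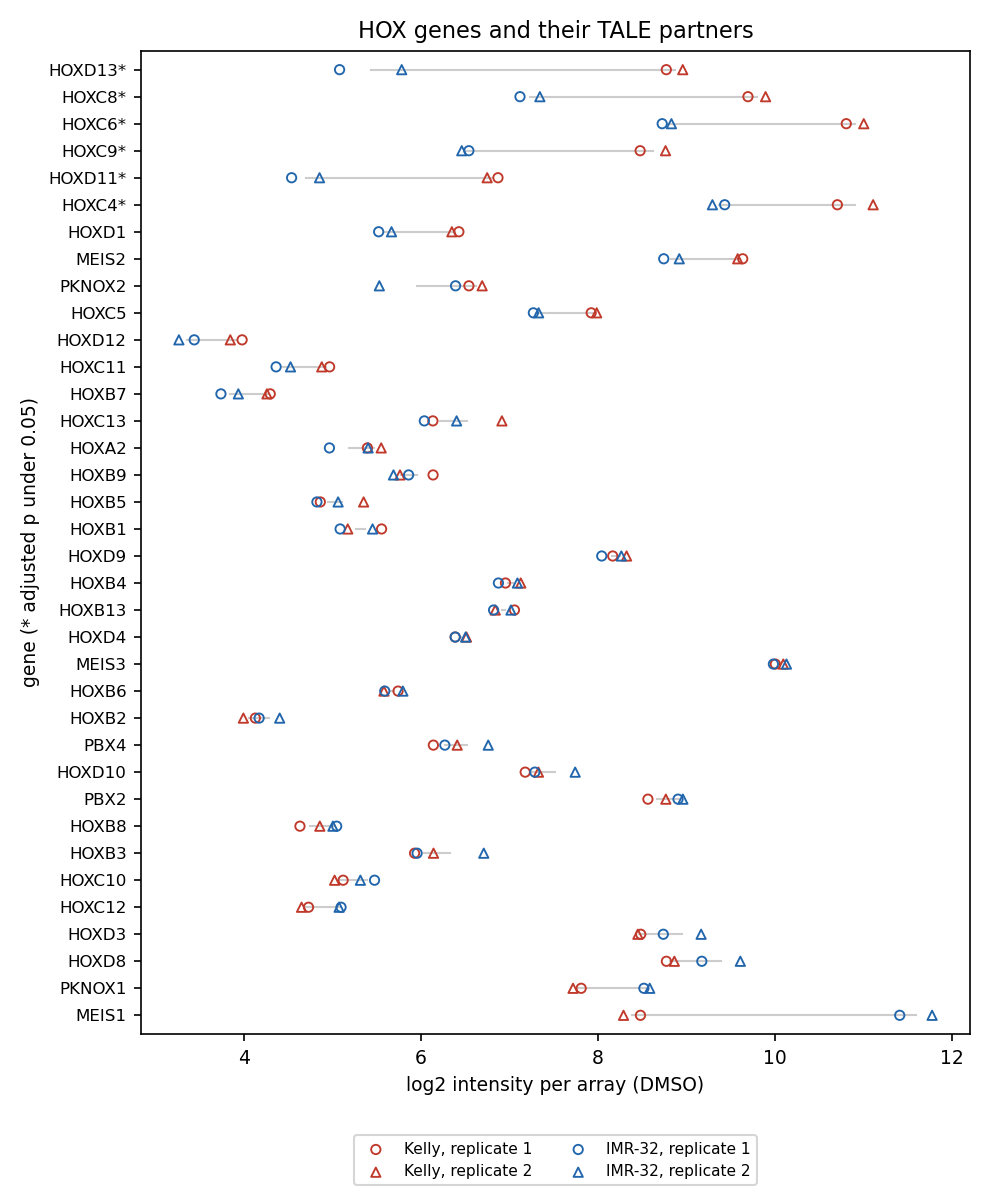
Log2 intensity on each DMSO array for the measured HOX genes and TALE partners, ordered by the line difference (circles replicate 1, triangles replicate 2, red Kelly, blue IMR-32). HOXD13 and HOXC8 lie furthest to the Kelly side and MEIS1 furthest to the IMR-32 side.

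Cancer-testis antigens are germ cell proteins that tumours can express. Of 27 measured genes, 6 were higher in Kelly and 0 in IMR-32 by limma (7 and 0 at an unadjusted p under 0.05), with a median of 0.16, and the calls numbered 7 and 0 without the 3 treated arrays. MAGEA1 was at 9.91 and 10.02 in Kelly and at 3.88 and 3.74 in IMR-32, with the IMR-32 arrays within the lowest 10% of genes (6.16 ± 0.23, 71.5-fold, adjusted p = 5.45e-06). PRAME, a repressor of retinoic acid receptor signals, was at 12.14 and 12.28 against 6.21 and 6.29 (5.95 ± 0.34, 62.0-fold, adjusted p = 2.63e-05). MAGEA10, MAGEA12, PAGE1 and CTAG2 were higher in Kelly by 5.06, 4.88, 3.55 and 2.53. The widely expressed relative MAGED1 was at 11.82 and 11.86 against 11.64 and 11.79 (adjusted p = 0.862). The MAGEA genes are close copies of each other, and signal shared between their probe sets was not tested.

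Imprinted genes, expressed from 1 parental copy, differed in both directions, with 4 of 23 higher in Kelly and 5 in IMR-32 (median -0.23), and the calls numbered 6 and 8 without the 3 treated arrays and 4 and 6 after median centring. MEST was at 11.37 and 11.31 in Kelly and at 6.85 and 7.04 in IMR-32 (4.40 ± 0.62, 21.1-fold, adjusted p = 0.00353). DLK1, a relative of the Notch ligands made by immature neuroendocrine cells, was at 14.01 and 14.06 against 11.28 and 11.33 (2.73 ± 0.21, adjusted p = 0.000127), and its homologue DLK2 differed by -1.06 ± 0.44 (adjusted p = 0.283). MKRN3 (2.58 ± 0.28) and NDN (1.49 ± 0.29), which share an imprinted region, were higher in Kelly, with IMR-32 arrays within the lowest 10% of genes. NNAT, neuronatin, was at 7.20 and 6.70 against 12.11 and 12.45 (-5.33 ± 0.26, 40.1-fold, adjusted p = 1.14e-05). PLAGL1, a zinc finger growth suppressor, differed by -4.71 ± 0.40, PEG3 by -3.01 ± 0.44, DIRAS3, a RAS-like suppressor, by -2.95 ± 0.41 and CDKN1C, the CDK inhibitor p57, by -2.70 ± 0.25. NDN kept its call only without the first Kelly array (adjusted p up to 0.147), and PEG3 lost it without the second IMR-32 array (0.0507).

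Neuropeptide genes marked each line by different members. Of 29 peptide and receptor genes, 3 were higher in Kelly and 5 in IMR-32 (median -0.08), and the calls numbered 4 and 9 without the 3 treated arrays and 3 and 4 after median centring. CARTPT, the precursor of the CART peptides, was at 9.83 and 9.96 in Kelly and at 4.91 and 3.96 in IMR-32 (5.46 ± 0.37, adjusted p = 6.21e-05), and SST, somatostatin, at 9.89 and 10.11 against 6.47 and 6.39 (3.58 ± 0.21, adjusted p = 3.23e-05). The somatostatin receptor SSTR2 differed the other way, at 6.26 and 6.17 against 11.20 and 11.51 (-5.14 ± 0.47, 35.3-fold, adjusted p = 0.000322). PENK, the enkephalin precursor (-3.34 ± 0.27), ADCYAP1, the peptide PACAP (-2.76 ± 0.35), and NMU, neuromedin U (-2.37 ± 0.21), were higher in IMR-32. GAL, galanin, was at 12.43 and 12.57 against 13.22 and 13.49 (-0.85 ± 0.21, adjusted p = 0.0535).

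Of 26 neuronal differentiation genes, 2 were higher in Kelly and 2 in IMR-32 (median -0.48), against 4 and 11 without the 3 treated arrays and 4 and 5 after median centring. GAP43, a growth cone protein, was at 11.85 and 12.06 against 10.23 and 10.53 (1.58 ± 0.25), and NEFH, the heavy neurofilament, differed by 1.91 ± 0.33. RBFOX3, the splicing factor NeuN of mature neurons, was at 4.92 and 5.06 against 8.72 and 8.83 (-3.79 ± 0.40), and RTN1, a reticulon of neuroendocrine cells, differed by -3.11 ± 0.26. STMN2, a neuronal stathmin, differed by -0.14 ± 0.40 (adjusted p = 0.933). Of 37 voltage-gated channel genes, 2 were higher in Kelly and 5 in IMR-32 (4 and 12 without the 3 treated arrays), among them CACNA1H, a T-type calcium channel (-2.42 ± 0.28), and SCN3B, a sodium channel beta subunit (-2.72 ± 0.41). NEFH lost its call without any 1 of the 4 DMSO arrays (adjusted p up to 0.111), GAP43 without the second Kelly or the first IMR-32 array (0.076), and SCN3B kept it only without the first IMR-32 array (up to 0.0657).

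Receptor tyrosine kinases differed in both directions. Of 39 receptors and ligands, 3 were higher in Kelly and 3 in IMR-32 (median -0.19), and the calls numbered 6 and 9 without the 3 treated arrays and 5 and 5 after median centring. RET, the receptor for GDNF family ligands, was at 10.91 and 10.80 in Kelly and at 6.88 and 7.18 in IMR-32 (3.82 ± 0.48, 14.2-fold, adjusted p = 0.00185). Its coreceptor for artemin, GFRA3, was higher in Kelly too (1.72 ± 0.18), while the coreceptor for neurturin, GFRA2, differed by -1.63 ± 0.56 (adjusted p = 0.18). MET, the receptor for hepatocyte growth factor, was at 8.55 and 8.05 against 5.06 and 5.25 (3.14 ± 0.43). KIT, the receptor for stem cell factor, was at 4.34 and 4.75 against 8.99 and 9.11 (-4.51 ± 0.54, adjusted p = 0.00145), with the Kelly arrays within the lowest 10% of genes, and NTRK3, the receptor for neurotrophin-3 (-1.71 ± 0.24), and PDGFRA (-3.05 ± 0.68) were higher in IMR-32. ALK, the kinase mutated in some neuroblastomas, was at 9.22 and 9.27 against 9.65 and 9.84 (adjusted p = 0.675), and NTRK2 differed by 0.03 ± 0.22. PDGFRA lost its call without any 1 of the 4 DMSO arrays (adjusted p up to 0.247), and its difference on the treated arrays was -0.98.

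Of 35 genes of the TGF-beta and BMP pathways, 3 were higher in Kelly and 1 in IMR-32 (median -0.14), against 5 and 13 without the 3 treated arrays and 4 and 3 after median centring, so the balance of calls had no settled direction. The ligand BMP7 was at 10.63 and 10.84 in Kelly and at 5.95 and 5.91 in IMR-32 (4.81 ± 0.26, 28.0-fold, adjusted p = 1.95e-05), and the ligand TGFB1 (2.49 ± 0.27) and the BMP target ID3 (1.59 ± 0.22) were higher in Kelly as well. The type I receptor TGFBR1 was higher in IMR-32 (-2.61 ± 0.61). Of 48 Wnt pathway genes, 3 were called in each direction (median -0.22), against 4 and 15 without the 3 treated arrays and 3 and 3 after median centring. LEF1, a nuclear partner of beta-catenin, was at 8.94 and 8.88 against 5.30 and 5.43 (3.55 ± 0.36), and TCF7L2, another (2.23 ± 0.33), and the transducer DVL1 (1.51 ± 0.31) were higher in Kelly, whereas the receptor FZD1 (-1.45 ± 0.28), the feedback gene AXIN2 (-1.49 ± 0.34) and the ligand WNT3 (-1.53 ± 0.36) were higher in IMR-32. TGFBR1, DVL1, FZD1, AXIN2 and WNT3 lost their calls without any 1 of the 4 DMSO arrays (adjusted p up to 0.315, 0.182, 0.181, 0.305 and 0.34), and TCF7L2 without the second Kelly or the first IMR-32 array (0.0554).

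Of 49 axon guidance genes, 5 were higher in Kelly and 4 in IMR-32 (median -0.08), and the calls numbered 11 and 13 without the 3 treated arrays and 9 and 5 after median centring. UNC5C, a netrin receptor, was at 8.93 and 9.29 against 5.94 and 6.11 (3.08 ± 0.29), and EPHB3, an ephrin receptor (2.09 ± 0.26), and the ephrin EFNA1 (1.89 ± 0.22) were higher in Kelly. SEMA5A, a semaphorin, was at 5.29 and 5.59 against 9.14 and 9.54 (-3.90 ± 0.28) and the repellent SLIT1 differed by -2.11 ± 0.31, a call lost without the first Kelly or the second IMR-32 array (adjusted p up to 0.0512). Of 48 adhesion and matrix genes, 3 were called in each direction (12 and 12 without the 3 treated arrays, 8 and 4 after median centring), with the collagen COL6A3 (3.59 ± 0.26) and the integrin ITGB5 (2.62 ± 0.23) higher in Kelly and the collagen COL5A1 (-2.40 ± 0.24) and NID1, a basement membrane linker (-1.97 ± 0.24), higher in IMR-32.

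Genes of the G1 phase that passed the test were higher in IMR-32. Of 20 measured genes, 0 were higher in Kelly and 3 in IMR-32 by limma (0 and 6 at an unadjusted p under 0.05), with a median of -0.73, or -0.51 after median centring, and 0 and 11 genes were called without the 3 treated arrays. CDKN1A, the CDK inhibitor p21, was at 8.76 and 8.85 in Kelly and at 11.04 and 11.26 in IMR-32 (-2.34 ± 0.23, adjusted p = 0.000467), and CDKN1C was given with the imprinted genes. CCND1, cyclin D1, was at 10.94 and 10.79 against 12.83 and 13.11 (-2.10 ± 0.39, adjusted p = 0.0151), and CCND2 differed by 0.09 ± 0.22. The kinases CDK4 (-0.70 ± 0.35) and CDK6 (-1.18 ± 0.55) did not pass the test. CCND1 lost its call without any 1 of the 4 DMSO arrays (adjusted p up to 0.136).

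Of 27 genes of the mesenchymal state, 0 were higher in Kelly and 3 in IMR-32 by limma (2 and 3 at an unadjusted p under 0.05), with a median of -0.01, but median centring called 3 and 2 and the fit without the 3 treated arrays 4 and 6, so the group had no settled direction. SNAI2, a repressor of epithelial genes, was at 5.86 and 6.07 in Kelly and at 9.34 and 9.72 in IMR-32 (-3.57 ± 0.35, adjusted p = 0.000488). VIM, vimentin, was at 10.98 and 10.78 against 12.15 and 12.52 (-1.45 ± 0.27), and SNAI1 differed by -1.32 ± 0.23. TWIST1 was at 11.19 and 11.37 against 11.88 and 12.09 (adjusted p = 0.588). VIM and SNAI1 lost their calls without any 1 of the 4 DMSO arrays (adjusted p up to 0.139 and 0.113). KRT19, a keratin of simple epithelia, was at 7.57 and 7.63 against 5.10 and 5.28 (2.41 ± 0.20) and was the only 1 of 10 epithelial markers called by limma, and EDNRB, an endothelin receptor of crest derivatives, the only 1 of 10 glial markers (3.02 ± 0.32).

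Of 30 glutathione and redox genes, 4 were higher in Kelly and 1 in IMR-32 (median -0.06), against 7 and 7 without the 3 treated arrays and 6 and 2 after median centring. MGST2, a microsomal glutathione transferase, was at 9.85 and 10.05 against 5.73 and 5.12 (4.53 ± 0.27), HMOX1, heme oxygenase, differed by 2.08 ± 0.22 and GPX7, a peroxidase, by -2.96 ± 0.30. ASS1, which makes argininosuccinate in arginine synthesis, was at 10.70 and 11.07 against 13.20 and 13.54 (-2.48 ± 0.25, adjusted p = 0.000534). IFI44, an interferon-induced gene, was higher in IMR-32 (-4.01 ± 0.29) and IRF7, an interferon regulatory factor, in Kelly (1.68 ± 0.22), out of 23 genes of that group (4 and 2 without the 3 treated arrays). HES6, a helix-loop-helix factor of the Notch pathway's family, was higher in IMR-32 (-2.30 ± 0.27).

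Several groups had 0 genes called by limma in either direction: 19 transcription CDKs and cyclins (2 and 3 genes at an unadjusted p under 0.05 towards Kelly and IMR-32), 32 homologous recombination and Fanconi genes (1 and 5), 28 BCL2 family and caspase genes (2 and 2) and 13 MYC network genes (0 and 1). Over all 18244 genes the counts at that unadjusted p were 1023 and 1811. Without the 3 treated arrays the genes higher in Kelly and in IMR-32 numbered 2 and 4 among the transcription CDKs and cyclins, 2 and 12 among the recombination genes, 1 and 7 among the BCL2 family and caspases and 0 and 3 in the MYC network, while 1317 and 3465 of all 18244 genes were called. The targets of THZ531 were at 8.97 and 8.95 against 8.24 and 8.60 for CDK12 (0.54 ± 0.57) and at 7.93 and 8.19 against 8.33 and 8.73 for CDK13 (-0.47 ± 0.81), and their cyclin CCNK differed by -0.73 ± 0.28 (adjusted p = 0.225).

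MYCN did not pass the test, but genes beside it did. MYCN was at 14.12 and 14.04 in Kelly and at 13.61 and 13.87 in IMR-32 (0.34 ± 0.21, 1.26-fold, adjusted p = 0.555), and its relative MYC was at 4.61 or lower, within the lowest 10% of genes on each of the 4 arrays. DDX1, an RNA helicase gene and the nearest measured gene on one side, was at 11.08 and 10.73 in Kelly and at 14.19 and 14.75 in IMR-32 (-3.56 ± 0.45, 11.8-fold, adjusted p = 0.002). NBAS, a vesicle tethering factor and the next gene, was at 10.41 and 10.37 against 13.51 and 13.85 (-3.29 ± 0.54, adjusted p = 0.00798), and LRATD1, the next again, at 6.86 and 7.18 against 11.90 and 11.89 (-4.87 ± 0.22, 29.3-fold, adjusted p = 8.83e-06). The arrays of the lines did not overlap for these 3 adjoining genes, on DMSO or on THZ531, and the gene after them, TRIB2, differed by 1.06 ± 0.51 (adjusted p = 0.383). On the other side 1 of 10 genes was called, KCNS3, a potassium channel subunit (-1.75 ± 0.23). NBAS lost its call without any 1 of the 4 DMSO arrays (adjusted p up to 0.0867), with differences of -3.46 to -3.12. DNA copy number was not analysed here.

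**Figure D5:**
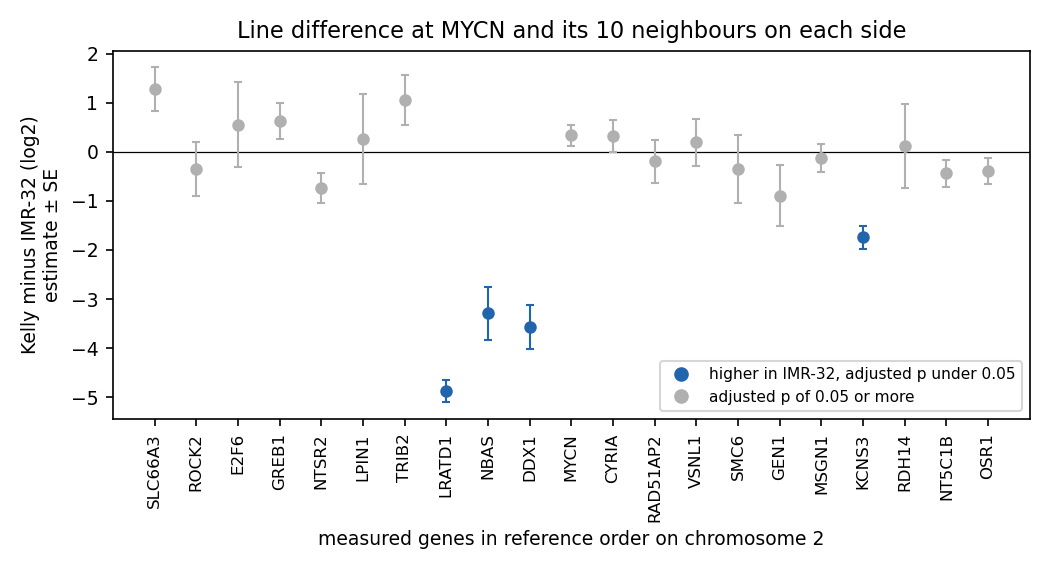
Line difference (Kelly minus IMR-32, log2) with its SE for MYCN and the 10 measured genes on each side of it, in reference order along chromosome 2. LRATD1, NBAS and DDX1 lie between -4.87 and -3.29 and MYCN beside them at 0.34.

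Along the chromosomes, runs of 21 neighbouring measured genes were described by their median difference, with no test. Leaving aside the lowest and the highest 1% of 17712 runs, the medians lay between -0.93 and 0.43. The highest median was 0.86, for the run from ACAP3 to CDK11A on chromosome 1, in which 16 of 21 genes had positive differences and 5 passed the test, PUSL1, which resembles pseudouridine synthases (1.52), INTS11, the endonuclease of the Integrator complex (1.11), DVL1 (1.51), MXRA8 (2.36) and ATAD3A, a mitochondrial ATPase (1.36). These calls except that of MXRA8 were lost whichever 1 of the 4 DMSO arrays was left out, which leaves 1 array for a line. The differences then ran from 1.39 to 1.66 for PUSL1 and from 1.01 to 1.22 for INTS11. For DVL1 they ran from 1.44 to 1.58 and for ATAD3A from 1.25 to 1.47. On the treated arrays the median of this run was 1.36. Of the 6 highest runs listed, 4 lay on chromosome 1 and 2 on chromosome 7. The lowest median was -1.43, for the run from C2orf49 to BUB1 on chromosome 2, with 18 of 21 differences negative, and it was -0.10 on the treated arrays. In that run the median levels were 6.35 and 6.49 on the Kelly arrays and 7.71 and 8.77 on the IMR-32 arrays, the highest on the brightest array, and the part of array brightness in this run was not tested. The share of genes higher in Kelly was 3.50% on chromosome 1 and 4.14% on chromosome 22, against 1.98% of all genes.

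The line difference was measured again on the 8 THZ531 arrays. Of the 362 genes higher in Kelly, all 362 kept their sign there and 356 (98.3%) did not overlap between the lines, against 8.54% of all genes in that direction. Of the 551 genes higher in IMR-32, 548 kept their sign and 488 (88.6%) did not overlap, against 6.96% of all genes. The test on the treated arrays called 350 and 483 of them, against 10.7% and 5.21% of all genes. The 2 comparisons share no array, but they share the estimate of the spread. By limma 0 of 18244 genes had a line difference that changed between DMSO and THZ531 (770 at an unadjusted p under 0.05, smallest adjusted p 0.486). That count does not show that the differences were equal, since the median SE of such a change was 0.37 against 0.30 for the line difference with DMSO. Of the 30 leading genes all 30 kept their sign on the treated arrays, 8 with a difference smaller by over 1 and 1 with one larger by over 1. The most reduced were SIMC1, from -5.46 to -3.06, ZIC5, from -5.40 to -3.52, and SSTR2, from -5.14 to -3.76. On the second IMR-32 100 nM array SIMC1 was at 9.42, against 5.96, 5.65 and 5.85 on the other treated IMR-32 arrays. ZIC5 was at 9.89 there, against 7.28, 6.46 and 6.41, and SSTR2 at 11.06, against 9.39, 8.84 and 8.39. That array was closest to the first IMR-32 DMSO array (0.993), so these treated means average unlike arrays. Its part in the measured reductions was not tested. SMARCA2 moved from -5.66 to -4.42 and TUBA1C from 4.96 to 6.05, while NHLH2 was at -7.17, DBH at 5.42 and RGS5 at 6.37 on the treated arrays.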

How the data were processed

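Total RNA of 12 samples was hybridised to 1-colour Affymetrix PrimeView arrays with a probe set definition that includes the ERCC spike-ins. The deposited values were linear intensities, which the authors made with the affy package in R (the processing notes name MAS5 and R 3.1.3), scaled to cell number through the spike-ins and renormalised by loess on the spike-in probe sets. The deposited intensities were converted to log2 without a pseudocount. All 12 value columns were mapped to samples by title, and 0 columns were left unmapped. Of 49495 rows, 45278 had 1 gene symbol in the platform annotation, 1333 had several and were left out, as were 2878 rows that the annotation does not list and the control rows. Each of 18244 genes was represented by its probe set with the highest mean, and 11825 genes had several.

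Group means of the 6 groups were fitted on all 12 arrays with limma 3.58.1 (R 4.3.3, lmFit and eBayes), with 2-sided tests and Benjamini-Hochberg adjustment over all genes at 0.05, and a called gene is one that passed. Errors are the SEs of this fit. The number of arrays limits the precision. Named genes were the 15 largest differences each way among called genes whose lines did not overlap and whose higher mean exceeded the median of all rows, with XIST and Y-linked genes left out, the called members of each gene list (up to 6 by adjusted p) and its brightest members, chosen pairs of related genes, and called genes of the extreme chromosome runs. From each list only some of these are printed. Members and gene lists were chosen with earlier results of these data known. Gene order, promoters and motif matches came from RefSeq tables (Python 3.11.15, pandas 2.3.3). The scripts were tested on simulated data, in which 200 of 18244 genes were changed. A log2 change of 1 was recovered for 4 of 50 genes, 2 for 32, 4 for 46 and 6 for 49. Of 137 calls, 6 were of unchanged genes. A gene that did not pass the test may therefore still differ. Alternatives were other scalings, pseudocount, probe set rule, dim-gene filter, arrays in the fit, moderation, replicate block and leaving out single arrays.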

Additional observations from a re-analysis of the deposited data

How the results depend on the processing

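The named genes that passed the test kept their sign under every alternative run, and 8 named genes that did not pass had another sign under some. The sign could not change where only the treated arrays in the fit, the moderation, the block or the genes tested differed. It was fixed also with each probe set tested, where the same probe set was read. Among all called genes with several probe sets, all sets shared 1 direction for 200 of 232 higher in Kelly and 345 of 367 higher in IMR-32. The medians of both extreme chromosome runs were computed again only for median centring, quantile normalisation, equal ERCC means and a pseudocount of 32. They moved by less than the replicate spread. The counts higher in Kelly and in IMR-32 were 362 and 551 with DMSO and 1956 and 951 with THZ531. These counts stayed within 1.5 times with the ERCC means made equal, a pseudocount of 32, mean probe sets, and trend and robust moderation. With DMSO they were 818 and 866 after median centring, 854 and 882 after quantile normalisation, 795 and 1302 with each probe set tested, 228 and 308 among genes above the median (fewer genes tested), 1195 and 3360 with the arrays of the comparison only, and 1317 and 3465 without the 3 treated arrays. The Kelly share of calls was 39.6%, against 48.6% after median centring and 49.2% after quantile normalisation. With THZ531, 1872 and 2155 genes were higher in IMR-32 after these scalings, 4320 and 2495 probe sets were called in the 2 directions, 1014 and 468 genes with the arrays of the comparison only, and 5688 and 1745 without the 3 arrays. Without single arrays the counts ran from 153 to 203 and 181 to 251 with DMSO, and from 1000 to 4174 and 490 to 1715 with THZ531. Apart from the smaller set of genes, the cause was not tested. With the replicate number as a block, 294 and 461 genes were called with DMSO and 1666 and 813 with THZ531. Deviations of same-numbered arrays correlated from -0.78 to 0.36 over all groups and from 0.159 to 0.273 among the IMR-32 groups. The 2 DMSO groups gave -0.0545, so the numbers were not taken as pairing these samples.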
